A study of Danio rerio with 8 samples.

Results

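The RNAs of 4 germ plasm genes were followed in sorted zebrafish cells: nanos3 (ENSDARG00000068255), ddx4, also known as vasa (ENSDARG00000014373), tdrd7a (ENSDARG00000032808) and dazl (ENSDARG00000036214). They were chosen by gene identifier, as 4 of the 34289 genes in the deposited tables, and not by their values here. Primordial germ cells (PGCs), from which eggs and sperm later arise, and somatic cells (soma) were profiled by low-input total RNA-seq at 7 hours post fertilisation (hpf, gastrula) and at 24 hpf (pharyngula). Each cell type had 2 libraries at each stage, so that there were 4 groups and 8 libraries in all. The labels of all groups give the same transgenic line, kop-EGFP-F-nos3′UTR, from which PGCs were separated by fluorescence-activated cell sorting (FACS), and the study's methods add a cry:dsred cassette to it. According to the methods, farnesylated EGFP is expressed in the PGCs of this line. The reporter RNA of this line carries the 3′ UTR of nanos3, so reads from that stretch cannot be told apart from endogenous nanos3 reads in these tables. The labels do not say how many embryos or clutches went into a library, and the p-values therefore measure only the spread between these libraries.

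Germ plasm is a store of maternal RNAs and proteins that is laid down in the egg, and in zebrafish the cells that inherit it become the germline. Nanos3 is a zinc-finger repressor of translation that PGCs need in order to survive and migrate, and Ddx4 is an RNA helicase of the DEAD-box family. Tdrd7a is a Tudor-domain protein that shapes germ granules, and Dazl is an RNA-binding protein that promotes translation of its target RNAs. Copies of such maternal RNAs that end up in soma are cleared during early development, while the RNA-binding protein Dnd1 shields some of them from microRNAs in PGCs.

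Library totals ranged from 6997561 to 21073240 expected counts, the estimated read counts per gene. Levels are given as CPM, the counts scaled to library size after correction with the trimmed mean of M-values (TMM). A count of 3 in a library, the limit that a count of 0 allows, corresponded to 0.158 to 0.309 CPM. The intervals quoted for single libraries are 95% Poisson intervals and cover counting error only. All 4 genes passed the count filter and were tested among 19885 genes. nanos3 and dazl passed it only through the PGC libraries, since no soma library held more than 13 counts of either, so that passing the filter already implied a difference.

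The cell type labels were first compared with marker genes. The other germ cell markers dnd1, ca15b and gra summed to 1052 and 1067 CPM in the PGC libraries at 7 hpf and to 107 and 72.9 CPM at 24 hpf. In soma they summed to 2.99 and 2.05 CPM at 7 hpf and to 0.199 and 1.92 CPM at 24 hpf. Both PGC libraries lay above both soma libraries at each stage. For single genes, this separation held for 23.8% of all tested genes at 7 hpf and for 19.2% at 24 hpf. dnd1, ca15b and gra are also in the study's lists of genes higher in PGCs, so their direction is not independent evidence.

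The 14 measured soma markers were not higher in soma as a sum at either stage. At 24 hpf they summed to 8866 and 17730 CPM in the PGC libraries and to 9247 and 17138 CPM in the soma libraries, so that the groups overlapped. With the edgeR test described below 0 of the 14 passed, where 0.0302% of all tested genes were called higher and 0 lower. An unadjusted edgeR p under 0.05 was found for 2 markers, of which mixl1 was higher in PGCs and gata1a was lower. mixl1 measured 5.49 and 3.15 CPM in the PGC libraries and 0 CPM in both soma libraries. DESeq2 called 1 of the 14 markers, where it called 48 of 25923 genes higher and 29 lower. Expression of actc1b, a muscle actin, was 5813 and 10439 CPM in the PGC libraries and 1232 and 9010 CPM in soma. That of the epidermal keratin krt4 was 2420 and 6372 CPM in the PGC libraries and 6762 and 7254 CPM in soma, and these genes made up most of the sums. The libraries labelled PGC at 24 hpf therefore held RNA of actc1b and krt4 at 2420 CPM or more. Other muscle and epidermal markers were compared with soma in the same way. myod1 measured 51.0 and 91.7 CPM there against 42.5 and 47.8 CPM in soma. krt5 measured 244 and 588 CPM against 795 and 499 CPM in soma. For tp63 the levels were 48.5 and 50.2 CPM against 60.8 and 54.2 CPM, and for epcam 50.4 and 23.7 CPM against 82.4 and 41.0 CPM. Further markers of the list also had RNA in these PGC libraries. sox3 measured 103 and 76.9 CPM against 109 and 95.5 CPM in soma, and sox2 42.7 and 17.4 CPM against 50.8 and 37.0 CPM. tbxta measured 32.6 and 28.2 CPM against 35.8 and 33.1 CPM. lef1 measured 23.4 and 23.0 CPM against 20.6 and 25.7 CPM, and tbx2a 25.9 and 15.3 CPM against 29.7 and 25.6 CPM. The blood markers stood lower in the PGC libraries without passing the test, with gata1a at 1.90 and 1.58 CPM against 13.0 and 9.20 CPM in soma, and hbae1.1 at 4.65 and 0 CPM against 12.8 and 5.76 CPM. At 7 hpf the sums were 4900 and 2637 CPM in PGCs and 1353 and 1705 CPM in soma. Both PGC libraries thus lay above both soma libraries, as they did for 23.8% of all tested genes. Of the 14 markers, 11 and 12 were above 3 counts in the PGC libraries of that stage and 11 and 10 in soma. krt4 alone gave 2820 and 1483 CPM in PGCs against 209 and 696 CPM in soma. Of the 14 markers, mixl1 and tbx2a passed as higher in PGCs at 7 hpf and sox2, sox3 and tp63 as lower. Of the 19885 tested genes, 717 (3.61%) were called higher and 364 lower at that stage. An unadjusted edgeR p under 0.05 was found for 8 of the 14 markers, and 8 passed with DESeq2. DESeq2 called 1524 of 25923 genes higher and 701 lower at that stage. The share of all tested genes with an unadjusted p under 0.05 was not counted at either stage. mixl1, tbx2a and lef1 are also in the study's lists of genes higher in PGCs, so their direction is not independent evidence. The alpha globin hbae1.1 was at 0 counts in all 4 libraries of that stage.

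**Figure D1:**
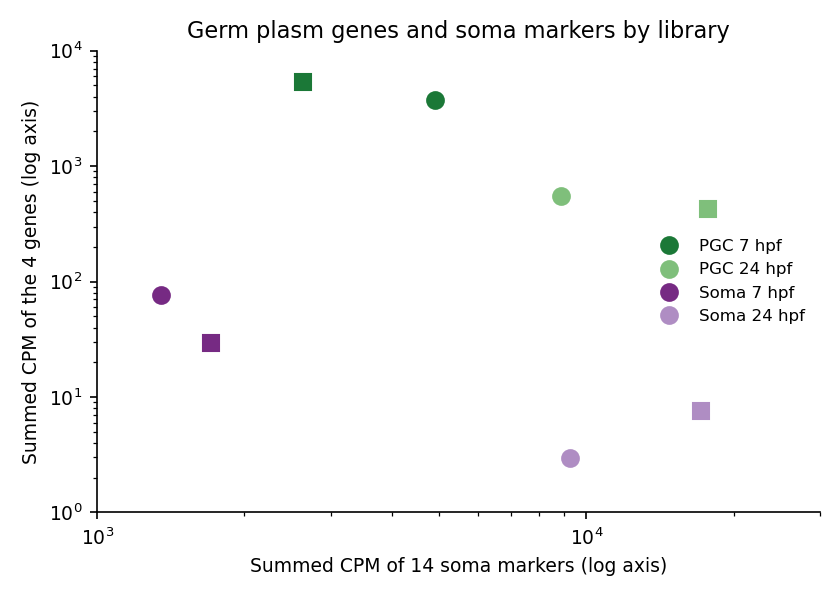
Summed CPM of the 4 germ plasm genes (vertical log axis) against the summed CPM of 14 soma markers (horizontal log axis), 1 point per library, with circles for replicate 1 and squares for replicate 2. At 24 hpf the PGC and soma libraries share the same range on the horizontal axis and lie far apart on the vertical axis, at 557 and 429 CPM against 2.98 and 7.55 CPM.

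Of the 4 genes, nanos3 had the lowest level in soma relative to PGCs at both stages. It measured 596 and 639 CPM in PGCs at 7 hpf, from 8217 and 6207 counts, and 109 and 61.2 CPM at 24 hpf. In soma it measured 0.524 and 0.28 CPM at 7 hpf and 0.265 and 0.686 CPM at 24 hpf, from 10 counts or fewer in each library. Every PGC library lay above every soma library, and the PGC libraries of 24 hpf lay below those of 7 hpf without overlap. Both PGC libraries lay above both soma libraries for 23.8% of all tested genes at 7 hpf and for 19.2% at 24 hpf. PGCs at 7 hpf lay above those at 24 hpf for 29.7%. Such a share was not counted for PGCs against soma of a different stage. The soma groups of both stages overlapped, within Poisson intervals that reach from 0.0576 to 1.26 CPM. The mean level in soma was 0.065% of that in PGCs at 7 hpf and 0.56% at 24 hpf.

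ddx4 had the highest CPM in soma among the 4 genes at 7 hpf. It measured 1255 and 1509 CPM in PGCs at 7 hpf and 213 and 187 CPM at 24 hpf. In soma it measured 70.4 and 24.6 CPM at 7 hpf, from 941 and 264 counts, and 1.72 and 2.47 CPM at 24 hpf. The 4 groups did not overlap and stood in the order of PGCs at 7 and then at 24 hpf, followed by soma at 7 and then at 24 hpf. With 2 libraries per group, PGCs at 7 hpf also lay above those at 24 hpf for 29.7% of all tested genes. PGCs lay above soma for 23.8% at 7 hpf and for 19.2% at 24 hpf. Such a share was not counted for the soma groups of the 2 stages, nor for PGCs at 24 hpf against soma at 7 hpf. The soma libraries of 7 hpf differed from each other by more than counting error, with intervals of 65.99 to 75.1 CPM and 21.7 to 27.8 CPM. The mean level in soma was 3.44% of that in PGCs at 7 hpf and 1.05% at 24 hpf, and for dnd1 these shares were 0.11% and 1.55%.

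tdrd7a reached the highest CPM of the 4 genes at 7 hpf. It measured 1762 and 3128 CPM in PGCs at 7 hpf and 208 and 162 CPM at 24 hpf. In soma it measured 5.16 and 4.66 CPM at 7 hpf and 0.596 and 3.77 CPM at 24 hpf. The groups followed the same order as for ddx4 without overlap, although the soma groups were separated only by the gap from 3.77 to 4.66 CPM. That stage difference in soma did not pass the test described below (adjusted p = 0.166, edgeR). Of all tested genes, 23.8% separated PGCs above soma at 7 hpf and 19.2% at 24 hpf. For 29.7%, PGCs at 7 hpf lay above PGCs at 24 hpf. Shares were not counted for PGCs against soma of a different stage, nor for the soma groups of the 2 stages. Soma replicate 2 at 24 hpf, with 55 counts, stood above replicate 1 with 9 counts by more than counting error.

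dazl was the least abundant of the 4 genes in every PGC library. It measured 95.9 and 39.6 CPM in PGCs at 7 hpf and 27.9 and 19.0 CPM at 24 hpf. In soma it measured 0.973 and 0 CPM at 7 hpf, where 3 counts correspond to 0.28 CPM, and 0.397 and 0.618 CPM at 24 hpf. PGC and soma libraries did not overlap at either stage, and the PGC libraries of the stages were separated only by the gap from 27.9 to 39.6 CPM. Over all tested genes PGCs lay above soma for 23.8% at 7 hpf and 19.2% at 24 hpf. PGCs at 7 hpf lay above those at 24 hpf for 29.7%. The soma groups overlapped, at 13 counts or fewer.

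**Figure D2:**
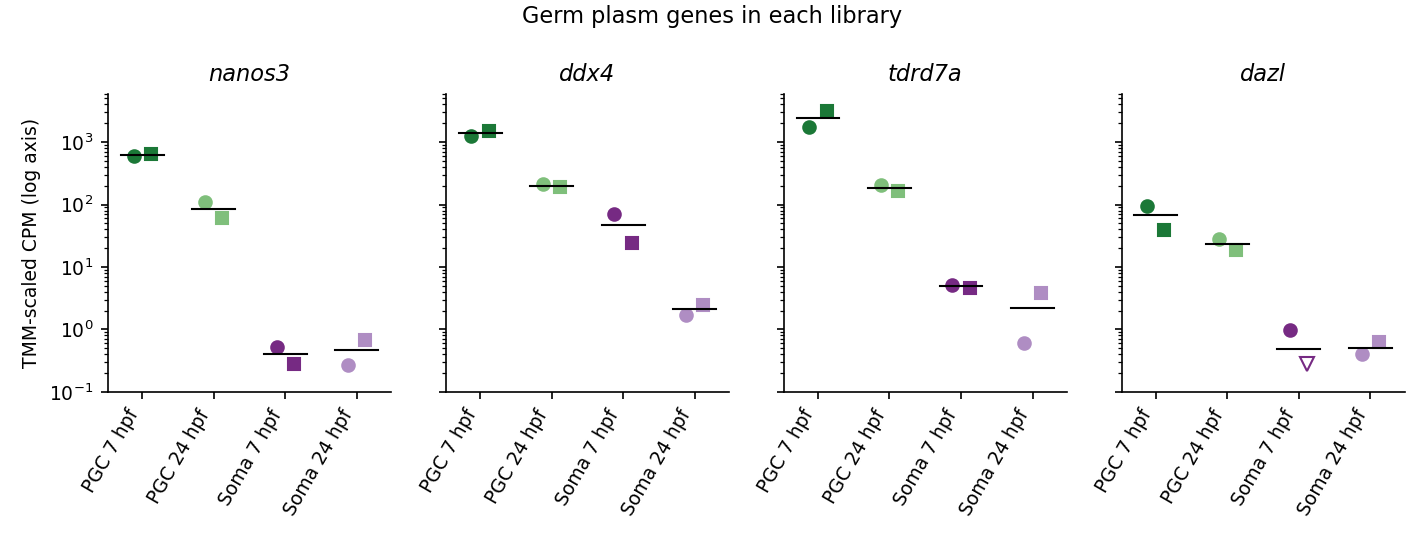
TMM-scaled CPM (log axis) of nanos3, ddx4, tdrd7a and dazl in each of the 8 libraries, with circles for replicate 1, squares for replicate 2 and a black line at the group mean (n = 2). The open triangle marks the soma library in which dazl had 0 counts, drawn at the CPM of 3 counts (0.28 CPM). For each gene both PGC groups lie above both soma groups, and ddx4 in soma at 7 hpf (70.4 and 24.6 CPM) lies closest to the PGC libraries of 24 hpf. The share of all tested genes with all PGC libraries above all soma libraries was not counted.

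Levels of different genes were compared within a library by TPM, which divides by transcript length. At 7 hpf nanos3 stood at 385 and 457 TPM in the PGC libraries, tdrd7a at 290 and 576 TPM, ddx4 at 247 and 387 TPM, and dazl at 59.2 and 22.1 TPM. By TPM, nanos3 ranked 177th and 170th of the 17768 and 18765 genes above 0, and dazl ranked 872nd and 2264th. nanos3 led in replicate 1 and tdrd7a in replicate 2, so that the order of these genes was not fixed between replicates, whereas ddx4 was in the third and dazl in the last place in both.

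At 24 hpf tdrd7a stood below ddx4 in both PGC libraries, a change of order that was not tested. tdrd7a, which stood above ddx4 by 1.18 and 1.49 times in TPM at 7 hpf, stood at 0.793 and 0.619 times ddx4 at 24 hpf. dazl stood at 0.239 and 0.0572 times ddx4 at 7 hpf and at 0.312 and 0.274 times ddx4 at 24 hpf. nanos3 stood at 1.56 and 1.18 times ddx4 at 7 hpf and at 1.61 and 0.907 times at 24 hpf, which overlap. These ratios are taken within a library, so the short non-coding RNAs that took up unequal shares of the TPM total cancel out of them.

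To ask which RNAs distinguished PGCs from soma, the cell types were compared at each stage with the edgeR quasi-likelihood test, with a threshold of 0.05 on the p adjusted by Benjamini-Hochberg and of 1.5 on the size of the log2 fold change. The values below are log2 fold changes with their standard errors. At 7 hpf all 4 genes were higher in PGCs, where 3.61% of the tested genes were called higher. nanos3 was higher by 10.52 ± 0.57 (adjusted p = 0.000182, edgeR) and held the third highest fold change of all tested genes. This rank is limited by the count filter, which nanos3 passed only through PGC libraries, and by reporter reads that may count as nanos3. tdrd7a was higher by 8.96 ± 0.80 (adjusted p = 0.00544, edgeR) and dazl by 7.01 ± 0.98 (adjusted p = 0.0146, edgeR). ddx4 had the smallest excess at 4.86 ± 0.50 (adjusted p = 0.00898, edgeR). The median of the 4 was 7.98, and the median over all tested genes was 0.00.

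The size of the excess depended in part on single soma libraries. Without soma replicate 1 at 7 hpf the value for ddx4 was 5.81, and without replicate 2 it was 4.29. For dazl the value was 6.11 without soma replicate 2 and 6.18 without PGC replicate 1, while without soma replicate 1 only the library with 0 counts remained and the fitted value is no bound. Both PGC libraries lay above both soma libraries for each of the 4 genes, as they did for 23.8% of all tested genes.

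At 24 hpf, 3 of the 4 genes passed the threshold, where 0.0302% of the tested genes were called higher. nanos3 was higher in PGCs by 7.46 ± 0.51 (adjusted p = 0.00285, edgeR), ddx4 by 6.57 ± 0.55 (adjusted p = 0.00676, edgeR) and tdrd7a by 6.40 ± 0.73 (adjusted p = 0.0407, edgeR). The other genes that passed were dnd1, ca15b and tdrd15. For dazl the value was 5.51 ± 0.92 (adjusted p = 0.296, edgeR), although its lowest PGC library stood 30.8 times above its highest soma library. Both PGC libraries lay above both soma libraries for all 4 genes and for 19.2% of all tested genes. The median of the 4 was 6.49 against 0.02 over all tested genes.

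The call for tdrd7a at 24 hpf was lost under 8 of 20 alternative settings, with an adjusted p of up to 0.267 (edgeR), among them the fits without any one of the 4 PGC libraries (adjusted p = 0.0624 to 0.111, edgeR). The call for nanos3 was lost under 1 of 20, the fit of the 4 libraries of this stage alone (adjusted p = 0.103, edgeR). dazl passed under 7 of 20 settings, among them DESeq2 (adjusted p = 1.29e-08) and edgeR's exact test (adjusted p = 4.59e-16), and its adjusted p over the 20 settings ranged from 4.59e-16 to 1. It also passed without either soma library of 7 hpf (adjusted p = 0.0375 and 0.0316, edgeR), which are not part of this comparison but enter the shared estimate of spread. Without soma replicate 2 at 24 hpf the value for tdrd7a was 8.26 and that for nanos3 8.28, and without replicate 1 they were 5.63 and 6.95.

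nanos3, ddx4 and tdrd7a passed at both stages, as did 0.0251% of all tested genes. These comparisons use separate libraries but 1 fit.

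**Figure D3:**
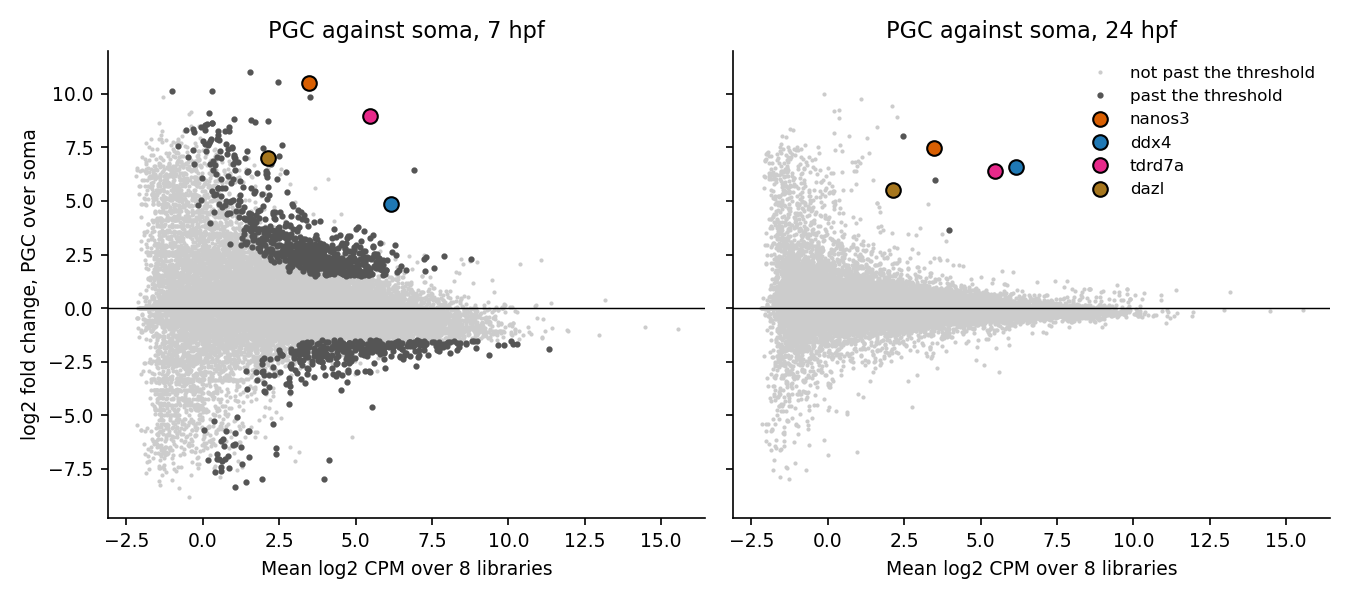
Log2 fold change of PGC over soma (vertical axis) against the mean log2 CPM over 8 libraries (horizontal axis) for the 19885 tested genes at 7 hpf (left) and 24 hpf (right). Dark points passed the threshold and coloured points are the 4 genes, which all pass at 7 hpf, while at 24 hpf dazl at 5.51 lies among genes that did not pass.

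The PGC libraries of the 2 stages were then compared. At 24 hpf, 3 of the 4 genes passed the test as lower than at 7 hpf, where 6.94% of the tested genes were called lower. tdrd7a fell by 3.73 ± 0.63 on the log2 scale (adjusted p = 0.00265, edgeR), nanos3 fell by 2.86 ± 0.38 (adjusted p = 0.000943, edgeR) and ddx4 fell by 2.79 ± 0.45 (adjusted p = 0.0022, edgeR). Reporter reads may count as nanos3 at both stages, and their share was not measured. The same limit holds for nanos3 in the TPM order, in the excess at 24 hpf and in the interaction. For dazl the log2 change was -1.53 ± 0.72 (adjusted p = 0.131, edgeR). Without PGC replicate 1 at 7 hpf it was -0.74 and without replicate 2 it was -2.04, and it passed under 6 of 20 alternative settings. Both PGC libraries of 7 hpf lay above both of 24 hpf for all 4 genes and for 29.7% of all tested genes. The median of the 4 was -2.83, whereas the median over all tested genes was 0.36.

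In these bulk libraries fewer PGCs among the sorted cells and less RNA per PGC cannot be told apart. The paper reports a high estimated purity for its sorted PGCs. Its further assessment of purity used the enrichment of germline markers, which include these 4 genes and dnd1. The summed soma markers stood at 2637 to 4900 CPM in the PGC libraries of 7 hpf and at 8866 to 17730 CPM in those of 24 hpf. Their part in the lower levels, in the PGC excess at 24 hpf and in its difference between the stages was not tested. The other germ cell markers also passed as lower, with log2 changes of -3.79 for dnd1, -3.08 for ca15b and -4.18 for gra.

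In soma, ddx4 was the 1 gene of the 4 that passed the test between the stages, where 9.89% of the tested genes were called lower. It fell by 4.50 ± 0.51 on the log2 scale (adjusted p = 0.000394, edgeR). That value was -3.55 without soma replicate 1 at 7 hpf and -5.07 without replicate 2. For tdrd7a the log2 change was -1.17 ± 0.64 (adjusted p = 0.166, edgeR), which became -3.02 and passed without soma replicate 2 at 24 hpf (adjusted p = 0.00358, edgeR, with 0.00358 to 0.758 over all settings). nanos3 and dazl had values of 0.20 ± 0.62 and -0.03 ± 1.00 at levels close to the count floor, where a stage difference was not detectable at this depth.

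Whether the PGC excess itself differed between the stages was tested by the interaction of cell type and stage, where 0.00503% of the tested genes were called. None of the 4 genes passed with edgeR, 3 of the 4 had an unadjusted p under 0.05, and 1 passed with DESeq2. DESeq2 called 716 of 25923 genes, and the share of all tested genes with an unadjusted p under 0.05 was not counted. The log2 difference of the excess, 24 hpf less 7 hpf, was -3.06 ± 0.72 for nanos3 (adjusted p = 0.144, edgeR; adjusted p = 0.013, DESeq2), with an adjusted p of 0.000992 to 0.67 over 18 settings. It was -2.55 ± 0.86 for tdrd7a (adjusted p = 0.227, edgeR), -1.502 ± 1.26 for dazl (adjusted p = 0.614, edgeR) and 1.71 ± 0.62 for ddx4 (adjusted p = 0.257, edgeR). The value for ddx4 was -0.55 with limma on log2(TPM + 1), -0.043 on TMM-scaled TPM and 0.71 on log2(TPM + 0.1), and positive under each setting that used counts. Single soma libraries also moved these values. Without soma replicate 2 at 24 hpf that for tdrd7a was -0.70 and that for nanos3 -2.24, and without soma replicate 1 at 7 hpf that for ddx4 was 0.76. For dazl the value was -0.67 without PGC replicate 1 and -0.60 without soma replicate 2 at 7 hpf, and -7.40 without soma replicate 1, where only the library with 0 counts remained.

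**Figure D4:**
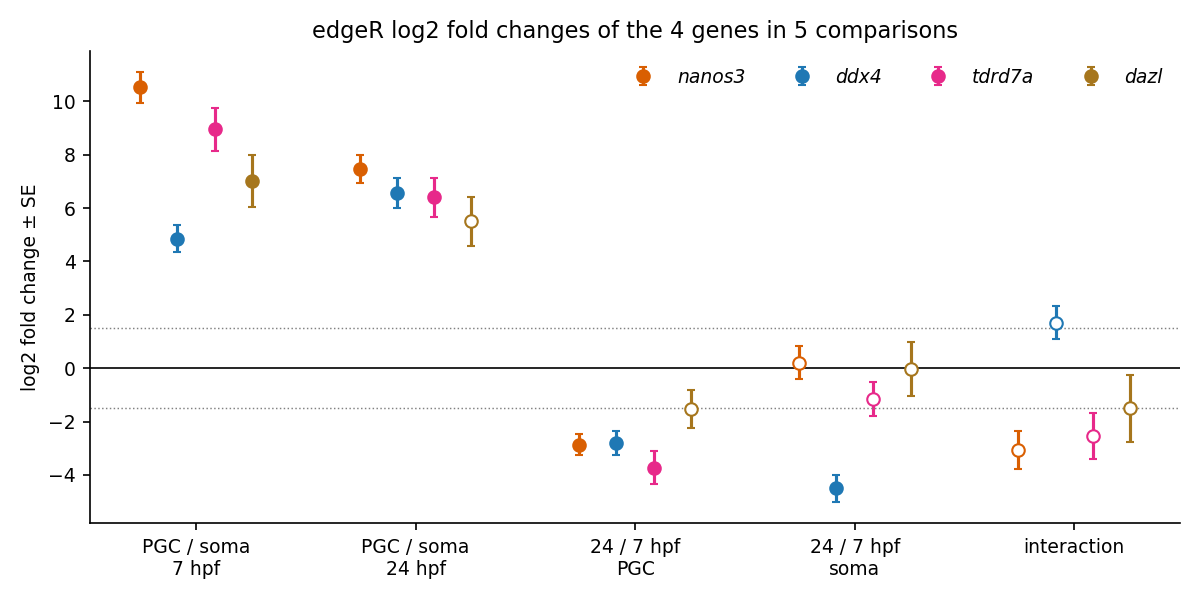
Log2 fold changes with their standard errors for the 4 genes in the 5 comparisons, from the edgeR fit of 8 libraries. Filled points passed the threshold, open points did not, and dotted lines mark the minimum log2 fold change of 1.5. ddx4 has the lowest value of the 4 at 7 hpf (4.86), the 1 filled point in soma (-4.50) and the 1 positive interaction value (1.71).

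Over the 8 libraries the log2 CPM of the 4 genes moved together, with the separation of PGC and soma libraries as the main part of each correlation. Pearson's r was 0.98 for nanos3 and tdrd7a, 0.97 for nanos3 and dazl, 0.94 for ddx4 and tdrd7a and 0.93 for tdrd7a and dazl. ddx4 was least like nanos3 and dazl, with r of 0.89 and 0.84. These values describe 8 libraries that share 4 group means and carry no test.

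The genes whose pattern was most like each of the 4 were found by the same correlation over all tested genes. ca15b, a carbonic anhydrase, came first for nanos3 (r = 0.997), followed by dnd1 (r = 0.986) and ENSDARG00000068683, a CHMP2B gene (r = 0.982). dnd1 came first for tdrd7a (r = 0.992), followed by ENSDARG00000099077 (r = 0.983) and nanos3 (r = 0.981). ca15b measured 414 and 223 CPM in PGCs at 7 hpf, 50.4 and 24.7 CPM at 24 hpf and at most 0.299 CPM in any soma library, whereas ENSDARG00000068683 did not exceed 2.1 CPM. The reference table gives the symbols CHMP2B, PRKCH and GALNT18 to more than 1 identifier each. For ddx4 the nearest genes were ccdc106b (r = 0.996), ENSDARG00000018382, a PRKCH gene (r = 0.981), and gpr179 (r = 0.972). ccdc106b resembled ddx4 in its soma levels of 2.69 and 0.932 CPM at 7 hpf and 0 and 0.0686 CPM at 24 hpf, beside 19.0 and 26.4 CPM in PGCs at 7 hpf. For dazl they were si:ch211-189a15.5 (r = 0.976), ENSDARG00000100889, a GALNT18 gene (r = 0.976), and ca15b (r = 0.974). Low levels also held for ENSDARG00000100889, gpr179 and ENSDARG00000099077, which did not exceed 4.13, 4.53 and 7.93 CPM in any library. In soma these genes did not exceed 1.12 CPM, so that their r rests on few soma counts.

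The other genes of the germ plasm and of the pathways around it were then counted from fixed lists. Many of their identifiers came from lists in the study of genes higher in PGCs, which were drawn from the same experiment, so their direction is not independent evidence. That holds for the 4 genes themselves, for 5 of 5 other germ plasm genes, for 7 of 10 genes of the Tudor-domain family, for 6 of 6 piRNA genes, for 5 of 8 genes of meiosis and gametogenesis and for 6 of 8 egg translation regulators. Like nanos3 and dazl, some list genes passed the count filter only through PGC libraries, so that their calls and unadjusted p carry the same limit. These were ca15b, asz1, sycp1, adad1, pld6 and smc1b, with at most 8 counts in any soma library, and rbm46. rbm46 had 18 counts in 1 soma library and 0 in the others. Of all tested genes, 3.61% were called higher in PGCs at 7 hpf and 0.0302% at 24 hpf. Between the stages 6.94% were called lower in PGCs and 9.89% in soma. DESeq2 called 1524 of 25923 genes higher and 701 lower in PGCs at 7 hpf, and 48 higher and 29 lower at 24 hpf. How many of all tested genes had an unadjusted p under 0.05 was not counted.

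Of the 5 other germ plasm genes, 4 passed with edgeR as higher in PGCs at 7 hpf and 2 at 24 hpf. At the 2 stages 5 and 4 had an unadjusted edgeR p under 0.05, and 5 and 4 passed with DESeq2. All 5 were lower at 24 than at 7 hpf in PGCs. ca15b was higher by 10.54 ± 0.72 and 8.03 ± 0.69 at the 2 stages (adjusted p = 0.000881 and 0.00676, edgeR), and dnd1 by 9.85 ± 0.81 and 6.002 ± 0.71 (adjusted p = 0.00333 and 0.0436, edgeR). rgs14a, a regulator of G-protein signalling, measured 224 and 91.9 CPM in PGCs at 7 hpf and 1.00 and 0.727 CPM at 24 hpf, and fell by 7.49 ± 0.89 on the log2 scale (adjusted p = 0.000561, edgeR). The germ granule gene gra passed at 7 hpf with 5.47 ± 0.83 (adjusted p = 0.0157, edgeR), and its value at 24 hpf was 4.48 ± 0.96 (adjusted p = 0.54, edgeR), a difference between the stages that did not pass either (interaction adjusted p = 0.809, edgeR). buc, which organises germ plasm in the oocyte, measured 21.5 and 20.9 CPM in PGCs and 6.96 and 3.45 CPM in soma at 7 hpf. With edgeR it did not pass there. The median log2 fold change of the list was 6.32 at 7 hpf, and at 24 hpf 6.002, or 4.48 with buc, which is at 0 in soma, set to its bound.

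Of 10 measured Tudor-domain relatives of tdrd7a, 1 passed with edgeR as higher in PGCs at 7 hpf and 1 at 24 hpf. At the 2 stages 6 and 7 had an unadjusted edgeR p under 0.05, and 4 and 5 passed with DESeq2. The list medians were 1.38 and 2.399, with 7 and 10 values above 0. tdrd1 measured 29.2 and 39.5 CPM in PGCs at 7 hpf and 2.25 and 3.08 CPM in soma, and passed with 3.69 ± 0.62 (adjusted p = 0.0191, edgeR). tdrd15 measured 37.4 and 59.8 CPM in PGCs at 7 hpf but also 64.0 and 54.4 CPM in soma, and passed only at 24 hpf, where it was at 16.4 and 14.2 CPM in PGCs and 1.13 and 1.30 CPM in soma (3.65 ± 0.38, adjusted p = 0.0263, edgeR). Of the 10 genes, 4 fell in PGCs and 6 fell in soma between the stages.

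Among 6 genes of the piRNA pathway, the small-RNA defence against transposons, 1 was higher in PGCs at 7 hpf, and at 24 hpf 0 passed with edgeR, 6 had an unadjusted p under 0.05 and 2 passed with DESeq2. asz1, which acts at the outer mitochondrial membrane, measured 8.92 and 29.9 CPM in PGCs at 7 hpf and 0.374 and 0.0932 CPM in soma (6.27 ± 1.19, adjusted p = 0.0217, edgeR). gpat2, also of that membrane, was at 25.4 and 28.1 CPM in PGCs and 21.6 and 10.3 CPM in soma at 7 hpf, and at 24 hpf at 3.85 and 8.48 CPM in PGCs, at least 30.5-fold above soma at 0 counts (floor of 3 counts per library). The list medians were 0.93 and 3.72.

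Of 6 tested genes for meiosis and gametogenesis, 2 were higher in PGCs at 7 hpf, and at 24 hpf 0 passed with edgeR, 5 had an unadjusted p under 0.05 and 4 passed with DESeq2. sycp1, of the synaptonemal complex, was higher by 6.09 ± 1.45 (adjusted p = 0.0379, edgeR) and adad1 by 4.51 ± 1.02 (adjusted p = 0.0378, edgeR). sycp3, of the same complex, had the lowest value of the list at 7 hpf, with 0 and 0.103 CPM in PGCs and 0.973 and 1.77 CPM in soma (-4.65 ± 2.19, adjusted p = 0.214, edgeR). smc1b, a meiotic cohesin subunit, measured 0.508 and 1.44 CPM in PGCs at 7 hpf and 3.27 and 7.76 CPM at 24 hpf, so that its libraries stood in the opposite order to those of the 4 germ plasm genes, and it did not pass. The list medians were 2.89 at 7 hpf and 4.82 at 24 hpf, or 3.92 with rbm46 and adad1, at 0 in soma, set to their bounds.

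Of 8 regulators of translation in the egg, 1 was higher in PGCs at 7 hpf, 6 fell in PGCs and 6 fell in soma between the stages, and at 24 hpf 0 passed between the cell types with edgeR, 5 had an unadjusted p under 0.05 and 3 passed with DESeq2. caprin2, an RNA-binding protein of the egg, measured 119 and 166 CPM in PGCs and 50.4 and 11.7 CPM in soma at 7 hpf (2.19 ± 0.57, adjusted p = 0.0493, edgeR). The list medians were 1.24 at 7 hpf and 2.51 at 24 hpf, or 2.33 over the 7 genes for which a value could be set with bounds.

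The 9 measured partners of Nanos and Dazl were Pumilio proteins, subunits of the CCR4-NOT deadenylase and poly(A)-binding proteins. With both edgeR and DESeq2, 0 passed between PGCs and soma at either stage, 4 had an unadjusted edgeR p under 0.05 at 7 hpf and 0 at 24 hpf, and the list medians were -0.59 and -0.07. cnot7 had the highest value at 7 hpf, 1.28, and pum2 the lowest, -1.08. pum2 and pabpc1a (-1.04) had an adjusted p under 0.05 at 7 hpf (0.0356 and 0.0269, edgeR) and missed only the minimum fold change.

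**Figure D5:**
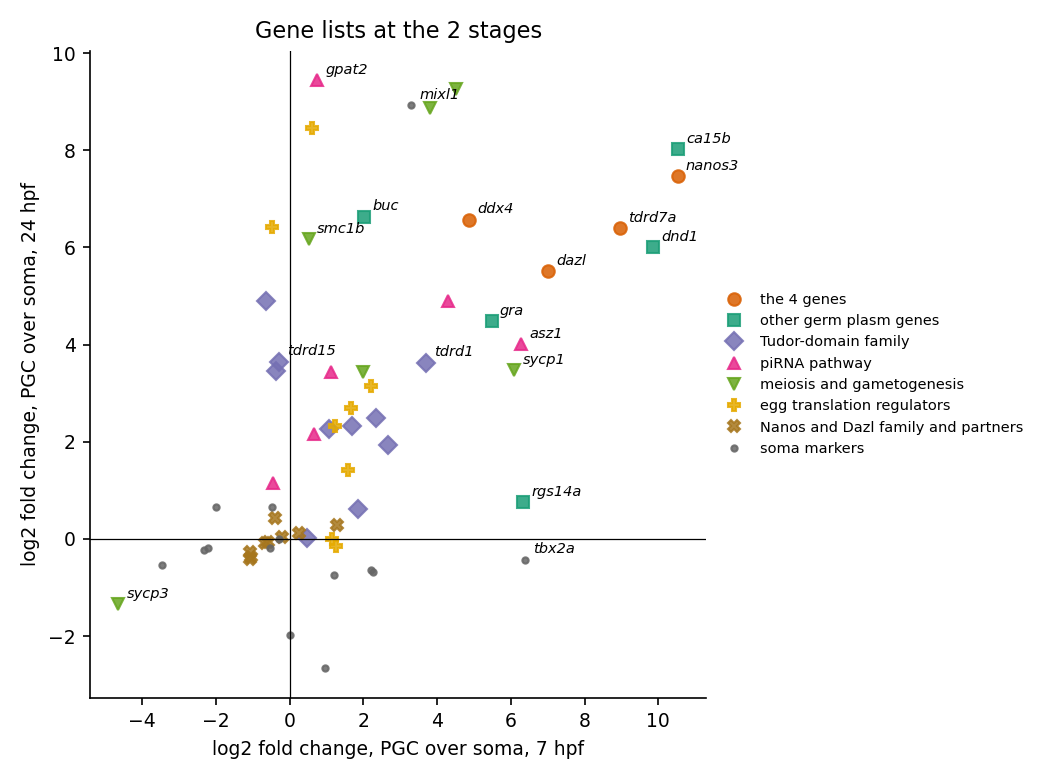
Log2 fold change of PGC over soma at 24 hpf (vertical axis) against that at 7 hpf (horizontal axis) for the 4 genes and for the genes of 7 lists, 1 point per gene and 1 symbol per list. The 4 genes lie at 4.86 to 10.52 on the horizontal axis and at 5.51 to 7.46 on the vertical axis, the partners of Nanos and Dazl lie between -1.08 and 1.28 on the horizontal axis, and fitted values of genes at 0 in soma depend on the prior count.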

How the data were processed

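Total RNA-seq libraries of sorted PGCs and soma (SMARTer pico kit, paired reads on a NovaSeq) were trimmed by the authors with Trim Galore, aligned with STAR to danRer10 and quantified with RSEM. The authors deposited expected counts (estimated counts per gene, not normalised), TPM (length-normalised, summing to the same total in each library) and effective lengths in bases. Use of strand in counting, the annotation release and merging with earlier lanes are not given in the sources used here, so overlapping and antisense genes are uncertain. The tables also hold 92 spike-in entries, all at 0 counts, which were left out. The deposited columns were assigned to groups and replicates by library title.

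Expected counts were rounded and fitted in R 4.3.3 with edgeR 4.0.16: filterByExpr, TMM, quasi-likelihood test, 1 fit of 8 libraries with 4 group means. A standard error is the log2 fold change over the root of F. CPM for likeness and correlation used a prior count of 2. The 5.8S rRNA took 6.81% to 33.5% and rn7sl1 1.85% to 12.4% of TPM, so libraries were compared by TMM-scaled CPM. The test was checked on simulated data. Symbols came from the reference gene table or the study's lists, which named 26790 of the 34289 identifiers. Of the listed genes, 10 had no identifier (tdrd7b, mael, mov10l1, nanos1, nanos2, boll, cnot3a, cnot6a, hbbe1.1 and col2a1a), and spo11 and dmc1 were below the filter. Sequences were not used here.

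The 4 genes were named in full, list genes where they passed between PGCs and soma or stood at the ends of their list, and for each gene the 3 genes with the highest Pearson r. gpat2, smc1b, buc, krt4, actc1b and ccdc106b were singled out after their values were seen. The genes and lists were chosen with earlier results of these data known. Alternatives were RLE factors, DESeq2 1.42.0, the exact test and a fit on 4 libraries, other filters and thresholds, a replicate block, limma 3.58.1 on log2(TPM + 1) and log2(TPM + 0.1), and leaving out each library. TMM-scaled TPM was added after seeing the data.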

Additional observations from a re-analysis of the deposited data

How the results depend on the processing

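Over 388 alternative values of single genes from 20 settings, 345 kept their direction and side of the threshold, 10 lost and 19 gained the call, and 14 changed sign. At 7 hpf the count of 4 genes was lost only to 3 with glmTreat (dazl, adjusted p = 0.0743). At 24 hpf 3 genes became 1 in the fit of 4 libraries, and 2 to 4 when a library was left out. In PGCs between the stages the count was 3 to 4 when a library was left out, and in soma 1 to 2, where 2 came without soma replicate 2 at 24 hpf. For the interaction, 0 became 1 with DESeq2, 3 without a count filter and 1 with limma on log2(TPM + 1), while leaving out a library gave 0 throughout. Over all genes DESeq2 called 716 of 25923, the fit without a count filter 986 of 25923 and limma 45 of 13460. The cause of these moves was not tested.

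The sign changes concerned values that did not pass in the report, of which the ddx4 interaction passed without a count filter (1.76). nanos3 between the stages in soma was -0.024 and -0.041 with limma on log2(TPM + 1) and log2(TPM + 0.1), and -0.62 to 0.74 when a library was left out. dazl in that comparison was 0.067 with RLE, 0.10 with DESeq2, 0.11 with a mean of at least 50 counts, 0.12 with limma on log2(TPM + 0.1), 0.039 on TMM-scaled TPM and 0.23 with the replicate block, and -0.93 to 5.87 when a library was left out. The ddx4 interaction was -0.55 with limma on log2(TPM + 1) and -0.043 on TMM-scaled TPM. nanos3 and dazl could not be fitted in the 4 soma libraries alone.

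Replicate differences of same-numbered libraries correlated at 0.077 between PGCs and soma at 7 hpf, 0.199 at 24 hpf, 0.043 between stages in PGCs and -0.009 in soma, and since there are only 2 pairs and no label gives a number a shared origin, the libraries were treated as sharing a number only. The replicate block left the counts at 4, 3, 3, 1 and 0 genes. Over all tested genes the calls at 24 hpf were 6 with edgeR, 77 with DESeq2, 183 with the exact test and 1 in the fit of 4 libraries, those at 7 hpf were 1081, 2225, 1513 and 400, and those for the interaction were 1 with edgeR and 716 with DESeq2. Between the stages 3886 genes were called higher and 1380 lower in PGCs, against 1610 and 2422 with limma on log2(TPM + 1), and in soma 4622 and 1966 against 2132 and 1794. At 7 hpf 717 were called higher and 364 lower, against 543 and 116. With 2 libraries per group, levels under about 0.3 CPM in soma could not be compared between stages.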

Other observations

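The effective length of a gene, averaged over its isoforms as RSEM weighted them, gives a further value for the 4 genes. Each library's common shift against PGC replicate 1 at 7 hpf was removed. The values remain effective lengths on the scale of that library and are not full transcript lengths. nanos3 was at 889.4 bases in all 8 libraries and tdrd7a at 3492 to 3498 bases in the 4 PGC libraries. ddx4 was at 2921 and 2832 bases in replicate 1 of the PGC libraries at 7 and 24 hpf and at 2503.5 and 2502 bases in replicate 2, so that the replicates differed by more than the stages did. In soma at 7 hpf ddx4 was at 2804 bases in replicate 1 and 2380 bases in replicate 2, from 941 and 264 counts. At 24 hpf the order in soma was the opposite, at 2281 and 2600 bases from 26 and 36 counts. dazl was at 933 and 1140 bases in PGCs at 7 hpf and at 1185 and 914 bases at 24 hpf. The 3 soma libraries with any dazl counts were at 1797 bases, from 13 counts or fewer. These lengths were not tested.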
